A study of Mus musculus with 20 samples.

Results

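The hippocampus of 5-month-old mice in an enriched environment (5mEE) was compared with that of 5-month-old mice in a standard cage (5mSC) by RNA sequencing. The members were taken by their labels, 5 libraries in each group, or 10 of the 20 libraries in the series. All were made from male C57BL/6 mice, 1 mouse per library, with no transgene or drug in any group. The remaining 10 libraries, 5 of 24-month-old mice in a standard cage (24mSC) and 5 of 24-month-old mice after enrichment (24mEE), entered the fit and served only for a comparison of the effect between ages. Per the methods of the study, an enriched cage was larger and held running wheels, platforms, tunnels and nesting material that were moved weekly. Those methods describe the old enriched mice but not the enriched mice of 5 months, so the length of their enrichment is not given in the sources used here. Because wheels, objects and space came together, they cannot be told apart.

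The hippocampus holds the dentate gyrus and the CA fields and is needed for spatial memory. When its neurons fire, calcium entry switches on immediate early genes within minutes, among them the transcription factors Fos, Egr1 and Npas4 and the synaptic protein Arc, and their RNA decays again soon afterwards. Enrichment with running is known for effects on dentate neurogenesis, on growth factors such as BDNF and on synaptic receptors, and the comparison asks which of these genes differ in level between the 2 cages in young adults.

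Library totals at 5 months ranged from 10963348 to 34107138 counts. The share of the 2 mitochondrial ribosomal RNAs, mt-Rnr1 and mt-Rnr2, was 1.44%, 1.16%, 26.8%, 1.13% and 1.82% in 5mSC replicates 1 to 5, and it was 0.953% to 1.09% in 5mEE. The third 5mSC library alone was over 10% and is left out in a parallel set of results, written as without replicate 3. Its correlation of log2 levels with the other 5mSC libraries was 0.923 to 0.932, whereas the 5mEE libraries correlated with each other at 0.991 to 0.994. Without it, the share of these RNAs was 1.39% ± 0.317 in 5mSC (SD, n = 4) and 1.03% ± 0.058 in 5mEE (SD, n = 5), and the groups did not overlap. No test is given, since the same share chose the library left out. Replicate 1 of 5mSC also carried little weight in limma's library weights (0.190, and 0.0777 for replicate 3, against 0.687 to 1.71 for the other 8), and values without both are given where they matter. The tissue label was checked with marker lists. The mean log2 CPM (CPM being counts scaled to a common library size) of the 9 CA1 markers was 5.67 to 6.26 and that of the 15 dentate gyrus markers 4.63 to 5.32 in the 10 libraries. Markers chosen for neocortex were also present, at 4.78 to 5.34.

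**Figure D1:**
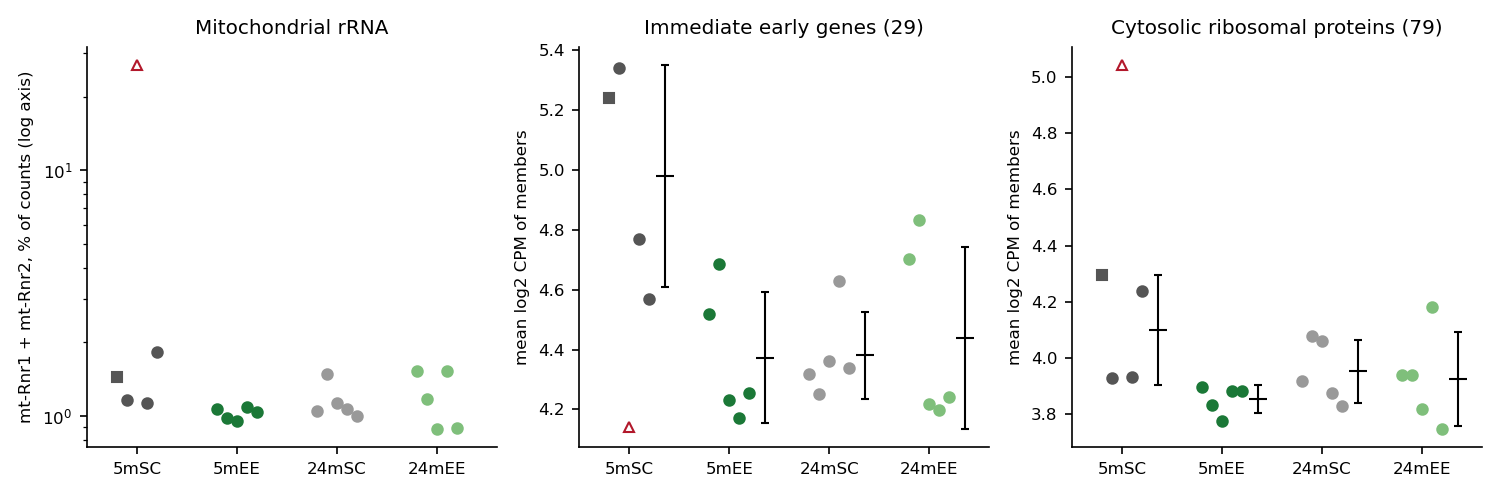
Share of mitochondrial ribosomal RNA on a log axis (left) and mean log2 CPM of the immediate early genes (middle) and of the cytosolic ribosomal proteins (right) by library and group (4 groups). Each point is 1 library, the open triangle is 5mSC replicate 3, the square is 5mSC replicate 1, and dashes with bars are mean and SD without replicate 3; the triangle lies highest on the left and right (26.8% and 5.04) and lowest in the middle (4.14).

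Few single genes separated the cages. With all 20 libraries in edgeR's quasi-likelihood fit, 0 of 16692 genes (0.0%) passed at an adjusted p under 0.05, whereas 2759 had an unadjusted p under 0.05, of which 1088 (6.52%) were higher and 1671 (10%) lower in 5mEE. The DESeq2 Wald test called 28 genes and limma-voom with library weights 0. Without replicate 3 edgeR called 1 of 16755 genes (0.00597%), Stk40, while 791 (4.72%) were higher and 1347 (8.04%) lower at an unadjusted p under 0.05. DESeq2 called 25 genes without replicate 3. Without 5mSC replicates 1 and 3, 386 of 16947 genes (2.28%) were higher and 752 (4.44%) lower. Counts at an unadjusted p under 0.05 also depended on the tool. With all libraries limma-voom gave 917 genes and a fit of only the 2 groups 1190, and without replicate 3 they gave 943 and 1401. The spread between libraries was smaller without replicate 3, with a common coefficient of biological variation of 17.4% with all libraries and 11.3% without replicate 3. Genes whose libraries did not overlap between the groups made up 0.743% (higher in 5mEE) and 0.875% (lower) of all genes tested, and 1.14% and 1.52% without replicate 3. The counts of gene lists given in the following text are read against these shares.

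Stk40, a pseudokinase of the tribbles family, was the gene that edgeR called lower in 5mEE without replicate 3. Its level was 41.4, 46.9, 33.4, 37.6 and 42.7 CPM in 5mSC replicates 1 to 5 and 33.3, 31.9, 30.5, 29.5 and 28.8 CPM in 5mEE. The groups did not overlap, though the lowest 5mSC library, replicate 3, lay next to the highest 5mEE library. The log2 fold change was −0.46 ± 0.070 (SE) without replicate 3 (edgeR adjusted p = 0.0344) and −0.40 ± 0.081 with all libraries (adjusted p = 0.223). Over the 16 alternatives without replicate 3 the fold change stayed between −0.51 and −0.41, while the adjusted p ranged from 3.32e-05 to 0.587. The call was lost on leaving out 5mSC replicate 1, 2 or 5 or 5mEE replicate 2, 3, 4 or 5 in addition, with adjusted p values of 0.0622 to 0.213. At 24 months Stk40 stood at 32.1 ± 1.69 CPM in 24mSC and 31.0 ± 2.59 CPM in 24mEE (SD, n = 5 each), close to the level of 5mEE. The difference of its enrichment effect between the ages did not pass (adjusted p = 0.335 without replicate 3). Stk40 lies on chromosome 4 from 126103957 to 126141029 (GRCm38).

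Other genes with the smallest p among the lower ones did not pass in edgeR. In DESeq2 without replicate 3, Atf4 (adjusted p = 0.0037), Pard6a (0.0044), S100a10 (0.0103) and Slc6a20a (0.0303) passed, and Crybb3 did not. Atf4, a transcription factor of the integrated stress response, had 137, 111, 64.3, 99.0 and 107 CPM in 5mSC and 85.8, 87.3, 81.8, 74.5 and 87.6 CPM in 5mEE. Of the 5mSC libraries replicate 3 lay under the range of 5mEE and the other 4 over it, and the log2 fold change was −0.45 ± 0.086 without it (adjusted p = 0.153) and −0.32 with it. Pard6a, a cell polarity protein, had 24.5, 19.9, 23.01, 20.7 and 21.2 CPM in 5mSC and 15.4, 17.3, 17.8, 16.2 and 15.4 CPM in 5mEE. Here every 5mSC library lay over every 5mEE library (−0.41 ± 0.079 without replicate 3, adjusted p = 0.153). S100a10, the partner of annexin A2, had 10.4, 7.62, 14.7, 9.28 and 9.29 CPM in 5mSC and 5.97, 5.35, 6.87, 6.73 and 5.06 CPM in 5mEE, again with no overlap (−0.63 ± 0.130, adjusted p = 0.236). The crystallin gene Crybb3 was low throughout, at 2.02 to 2.38 CPM in 4 of the 5mSC libraries, 11.5 CPM in replicate 3 and 1.04 to 1.70 CPM in 5mEE (−0.72, adjusted p = 0.242). Slc6a20a, an amino acid transporter that carries proline, had 9.57, 12.25, 16.8, 16.5 and 10.8 CPM in 5mSC and 7.05 ± 1.52 CPM in 5mEE, and its groups touched (−0.80 ± 0.184, adjusted p = 0.242). Replicates 3 and 4 of 5mSC, highest for Slc6a20a, were also the highest for the fibroblast list described in a later paragraph. A link between them was not tested. The long RNA Gm26917, among the lower genes with all libraries, stood at 22930 CPM in replicate 3, whereas replicates 1, 2, 4 and 5 of 5mSC ranged from 30.0 to 69.1 CPM.

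Among the higher genes, Kif17, a dendritic kinesin that carries NMDA receptor cargo, had 22.3, 21.9, 17.2, 26.2 and 24.4 CPM in 5mSC and 30.9, 30.3, 29.2, 31.3 and 30.3 CPM in 5mEE. All 5mEE libraries lay over all 5mSC libraries and close together (0.35 ± 0.066 without replicate 3, edgeR adjusted p = 0.153). In DESeq2 Kif17 passed both with all libraries (adjusted p = 0.00352) and without replicate 3 (adjusted p = 0.00344). Htr1a, the serotonin 1A receptor, had 33.6, 34.01, 35.3, 41.1 and 30.6 CPM in 5mSC and 41.9, 44.3, 46.8, 45.6 and 46.2 CPM in 5mEE. The groups did not overlap, with replicate 3 inside the range of its group, and the log2 fold change was 0.36 with all libraries and without replicate 3 (adjusted p = 0.223 and 0.242). Peli3, a pellino-type E3 ubiquitin ligase, stood at 20.3 ± 2.72 CPM in 5mSC (n = 4) and 25.9 ± 1.24 CPM in 5mEE (n = 5), and its relative Peli2 at 23.1 ± 2.14 and 29.4 ± 3.34 CPM. The receptor Acvr1c of the activin and nodal pathway had 18.3 to 21.9 CPM in 5mSC and 40.5, 25.2, 26.8, 34.1 and 22.7 CPM in 5mEE, where the enriched libraries were apart from the standard ones but spread widely. Periplakin (Ppl; 0.75 ± 0.167), Ccdc9b (0.45 ± 0.092), Zc3h6 (0.39 ± 0.093) and the noncoding A230056P14Rik (0.32 ± 0.075) completed the higher genes without replicate 3, each with an adjusted p of 0.236 or 0.242. Of these, Ccdc9b and Zc3h6 were highest in replicate 3 (19.9 and 25.9 CPM), and 43.0% of the exon length of A230056P14Rik overlaps other genes. In DESeq2 without replicate 3, Htr1a (adjusted p = 0.03985), Acvr1c (0.03985), Ppl (0.0128), Ccdc9b (0.0128) and Zc3h6 (0.0376) also passed. Peli3, Peli2 and A230056P14Rik passed in DESeq2 only with all libraries (adjusted p = 0.0234, 0.0491 and 0.03425).

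**Figure D2:**
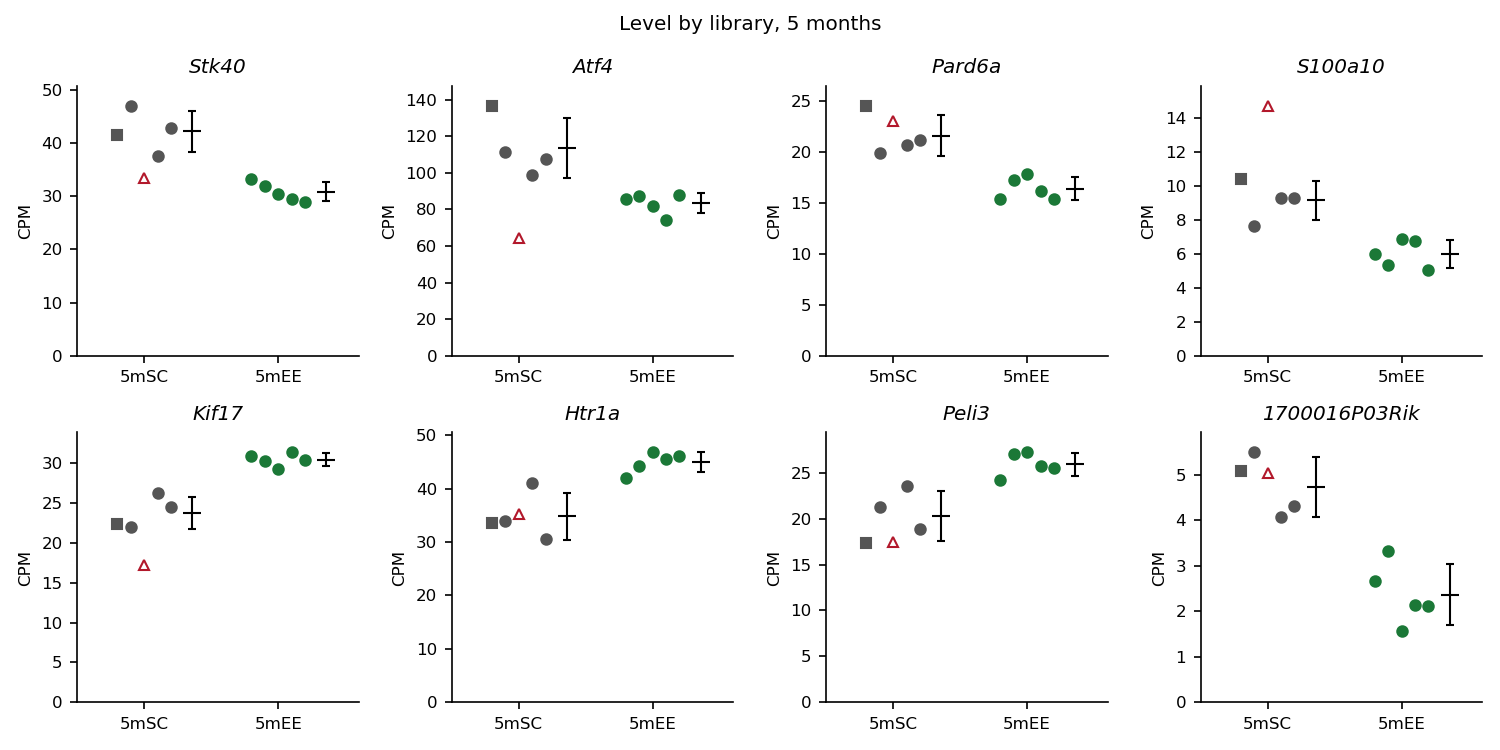
Level in CPM of 8 genes with small p in the 5mEE against 5mSC comparison, for each library. Points are libraries, the open triangle is 5mSC replicate 3, the square is 5mSC replicate 1, and dashes with bars are mean and SD without replicate 3; Stk40, Pard6a, S100a10 and 1700016P03Rik show all 5mEE points under all 5mSC points, Kif17, Htr1a and Peli3 the reverse, and Atf4 only without the triangle.

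The noncoding RNA 1700016P03Rik had the largest fold change among these lower genes without replicate 3. It is the host transcript of 2 microRNAs, Mir212 and Mir132, known as targets of the activity-dependent factor CREB. Its level was 5.08, 5.48, 5.04, 4.06 and 4.32 CPM in 5mSC and 2.67, 3.33, 1.56, 2.13 and 2.12 CPM in 5mEE, with no overlap of the groups and with replicate 3 inside its group. The log2 fold change was −1.01 ± 0.200 with all libraries (edgeR adjusted p = 0.223) and −0.9999 ± 0.194 without replicate 3 (adjusted p = 0.153). DESeq2 called it in both (adjusted p = 0.00511 and 0.00344). The transcript spans 75172560 to 75177633 on the plus strand of chromosome 11 (GRCm38), and 74.3% of its exon length overlaps Ovca2 on the minus strand. Since the libraries do not mark the strand, reads of the 2 genes cannot be told apart there. Ovca2 had 8.53, 7.19, 8.11, 5.07 and 5.35 CPM in 5mSC and 4.85 to 5.73 CPM in 5mEE, which overlap (−0.33 ± 0.134 without replicate 3, adjusted p = 0.345; −0.16 ± 0.120 without replicates 1 and 3). The hairpins lie at 75173388 to 75173478 (Mir212) and 75173682 to 75173747 (Mir132), upstream of that overlap. They drew at most 18 and 11 reads in any of the 20 libraries, and the mature microRNAs were not measured here. Their 3p arms, shown because they share 1 seed, are given from RefSeq (GRCm38.p6) with the seed, bases 2 to 8, in capitals:
mmu-miR-212-3p: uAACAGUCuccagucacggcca
mmu-miR-132-3p: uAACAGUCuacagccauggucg

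The immediate early genes as a group stood lower in 5mEE. Of 29 members tested, 24 were lower and 0 higher at an unadjusted p under 0.05 without replicate 3, beside 8.04% and 4.72% of all genes, and the median log2 fold change was −0.60, beside −0.007 over all genes. With all libraries the counts were 18 lower and 0 higher and the median was −0.49, and without replicates 1 and 3 they were 19 and 0 with a median of −0.46. None of the 29 passed the adjusted test in edgeR. For 3 of the 29 (Arc, Npas4 and Maff) all 5mSC libraries other than replicate 3 lay over all 5mEE libraries, beside 1.52% of all genes. The mean log2 CPM of the members was 5.24, 5.34, 4.14, 4.77 and 4.57 in 5mSC replicates 1 to 5 and 4.52, 4.68, 4.23, 4.17 and 4.25 in 5mEE. Replicates 1 and 2 of 5mSC were the highest of the 20 libraries, replicate 3 the lowest, and replicate 5 lay inside the range of 5mEE. Library 5mSC replicate 1 thus carried a high score together with a low library weight, and the part of library quality in this difference was not tested. At 24 months the members scored 4.25 to 4.63 in 24mSC and 4.20 to 4.83 in 24mEE.

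The AP-1 factor Fosb had 27.3, 31.7, 9.53, 21.4 and 17.4 CPM in 5mSC and 16.2, 20.5, 15.8, 13.2 and 11.5 CPM in 5mEE. Apart from replicate 3, which was the lowest of all, its groups overlapped only in 5mEE replicate 2 and 5mSC replicate 5 (−0.67 ± 0.155 without replicate 3, edgeR adjusted p = 0.242). Dusp6, a phosphatase that feeds back on ERK, stood at 79.6 ± 13.4 CPM in 5mSC (n = 4) and 57.5 ± 6.60 CPM in 5mEE (−0.48 ± 0.115, adjusted p = 0.242). The members that follow were chosen after their values were seen, as the best known of the list. Arc had 292, 420, 78.99, 226 and 201 CPM in 5mSC and 153, 158, 88.0, 75.6 and 107 CPM in 5mEE (−1.30 ± 0.323, adjusted p = 0.242). Without replicate 3 every standard-cage library was over every enriched one for Arc. Npas4, a factor specific to neuronal activity, had 23.9, 30.0, 13.4, 13.6 and 14.6 CPM in 5mSC and 9.88, 13.2, 7.92, 11.7 and 10.4 CPM in 5mEE (−0.94 ± 0.252, adjusted p = 0.282). It was the member whose groups did not overlap even with replicate 3. Fos had 37.9, 54.1, 13.6, 18.7 and 14.3 CPM in 5mSC and 14.4, 21.9, 8.43, 7.84 and 7.49 CPM in 5mEE (−1.37 ± 0.430, adjusted p = 0.311), so that 2 of the 5mSC libraries stood far over the rest. Nr4a1, an orphan nuclear receptor, had 142, 148, 58.0, 98.4 and 77.1 CPM in 5mSC and 51.4 to 86.6 CPM in 5mEE (−0.93 ± 0.239, adjusted p = 0.265).

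Of the Egr zinc finger factors, Egr1 stood at 206 ± 85.2 CPM in 5mSC (n = 4) and 116 ± 31.6 CPM in 5mEE, Egr4 at 34.8 ± 16.1 and 18.2 ± 5.05 CPM (−0.94, and −0.62 without replicates 1 and 3), and Egr2 at 7.45 ± 4.54 and 2.32 ± 1.81 CPM. The AP-1 members had unlike values. Junb had a log2 fold change of −0.93 ± 0.231, whereas Jun had 0.003 ± 0.198 and 99.5 ± 22.7 CPM in 5mSC beside 100.2 ± 27.4 CPM in 5mEE (unadjusted p = 0.988). The DNA repair and demethylation factor Gadd45b (−0.76 ± 0.189) and the serum response factor Srf (−0.25 ± 0.055, not a member) passed in DESeq2 without replicate 3 (adjusted p = 0.0493 and 0.0206), as did Fosb (adjusted p = 0.0349). Srf had 84.5, 79.8, 61.4, 78.8 and 81.2 CPM in 5mSC and 72.9, 70.6, 66.8, 64.2 and 68.1 CPM in 5mEE, which are apart except for replicate 3. Of 20 late activity-regulated genes 3 were lower and 2 higher with all libraries (median 0.07). Without replicate 3, 6 were lower and 1 higher (median −0.06), beside 8.04% and 4.72% of all genes. Homer1 (262 ± 43.9 and 205 ± 29.7 CPM; −0.36 ± 0.109) was among the lower and the perineuronal net proteoglycan Acan (4.60 ± 0.864 and 6.27 ± 0.269 CPM; 0.45 ± 0.128) was the higher one. Bdnf, the growth factor, had 55.3 to 68.0 CPM in 5mSC without replicate 3, 30.7 CPM in it and 45.7 to 60.7 CPM in 5mEE (−0.19 ± 0.085 without replicate 3, −0.04 ± 0.140 with all libraries).

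**Figure D3:**
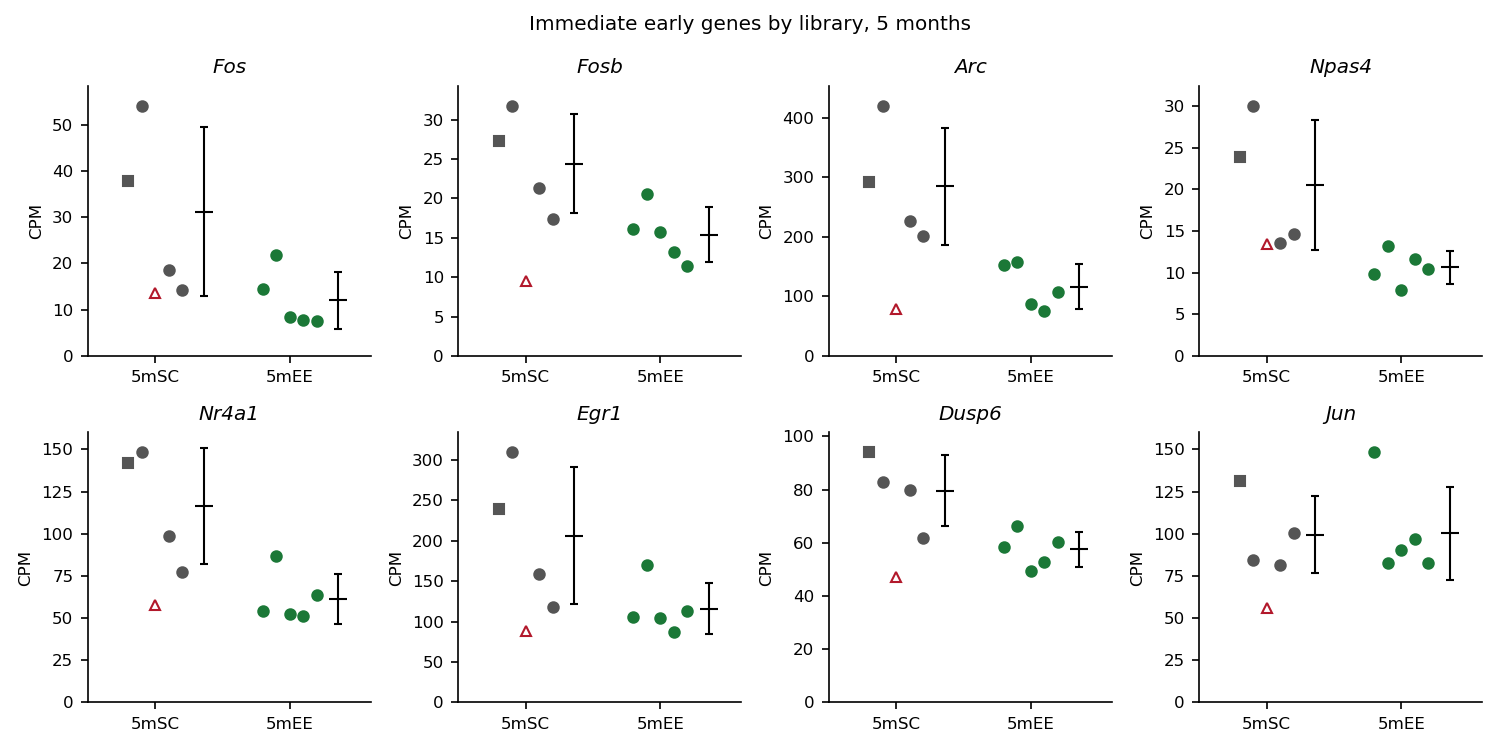
Level in CPM of 8 immediate early genes in each 5-month library. Points are single libraries, the open triangle is 5mSC replicate 3, the square is 5mSC replicate 1, and dashes with bars are mean and SD without replicate 3; for the members other than Jun the upper 5mSC points lie over all 5mEE points, while Jun overlaps fully, with 5mEE replicate 1 highest at 148 CPM.

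The promoters of these genes are shown because the members stood lower together. In RefSeq (GRCm38.p6) 24 of the 29 members had an entry, with 31 promoters between them. The half-site of the cAMP response element, TGACG or its reverse complement CGTCA, was searched in the 250 bases before the start site, which reads both strands. It was found in 20 of these 31 promoters, belonging to 16 members, and in 17.8% of all 32851 promoters. The full element TGACGTCA was found in 3 members (Btg2, Dusp1 and Maff) and in 1.55% of all promoters, and each full element also counts as 2 half-sites. These matches are a description of letters and no evidence of binding. Printed in lower case with half-sites in capitals, read 5′ to 3′ along the strand of the gene and ending at the base before the start site, are 4 members, Stk40, and Kif17, a higher gene that also holds a full element:
Fos (chr12:85473640-85473889, plus strand): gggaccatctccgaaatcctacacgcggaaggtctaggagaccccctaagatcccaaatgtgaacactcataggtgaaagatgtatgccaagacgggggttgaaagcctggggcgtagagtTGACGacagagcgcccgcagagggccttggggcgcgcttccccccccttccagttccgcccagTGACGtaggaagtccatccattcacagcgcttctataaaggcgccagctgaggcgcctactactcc
Npas4 (chr19:4989972-4990221, minus strand): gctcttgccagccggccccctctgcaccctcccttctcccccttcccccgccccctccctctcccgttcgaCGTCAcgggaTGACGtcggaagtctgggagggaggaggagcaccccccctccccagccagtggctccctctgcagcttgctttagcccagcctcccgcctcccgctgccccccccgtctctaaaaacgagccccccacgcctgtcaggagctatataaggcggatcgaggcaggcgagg
Nr4a1 (chr15:101266596-101266845, plus strand): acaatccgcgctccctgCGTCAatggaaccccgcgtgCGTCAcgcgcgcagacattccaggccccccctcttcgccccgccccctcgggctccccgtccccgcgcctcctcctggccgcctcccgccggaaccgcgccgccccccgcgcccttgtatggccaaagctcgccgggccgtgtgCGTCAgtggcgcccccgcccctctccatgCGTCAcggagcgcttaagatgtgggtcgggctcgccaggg
Dusp1 (chr17:26508473-26508722, minus strand): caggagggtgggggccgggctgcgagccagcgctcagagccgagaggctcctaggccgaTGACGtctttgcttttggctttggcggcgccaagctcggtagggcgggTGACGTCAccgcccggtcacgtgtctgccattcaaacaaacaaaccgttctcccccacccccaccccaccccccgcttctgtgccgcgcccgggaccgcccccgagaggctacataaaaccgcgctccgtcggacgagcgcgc
Stk40 (chr4:126103707-126103956, plus strand): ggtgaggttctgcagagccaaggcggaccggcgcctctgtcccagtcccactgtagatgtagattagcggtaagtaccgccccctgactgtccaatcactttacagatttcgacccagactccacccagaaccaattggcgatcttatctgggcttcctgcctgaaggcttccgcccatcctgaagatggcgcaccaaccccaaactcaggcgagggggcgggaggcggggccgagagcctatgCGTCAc
Kif17 (chr4:138262001-138262250, plus strand): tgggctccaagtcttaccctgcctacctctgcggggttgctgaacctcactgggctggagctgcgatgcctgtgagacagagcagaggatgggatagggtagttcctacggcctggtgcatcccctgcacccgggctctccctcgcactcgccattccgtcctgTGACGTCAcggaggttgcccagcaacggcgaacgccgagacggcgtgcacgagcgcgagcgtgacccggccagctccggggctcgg
Fos, Npas4, Nr4a1 and Dusp1 hold 2, 2, 4 and 3 half-sites, and Stk40 holds 1. Dusp1, a phosphatase of MAP kinases, stood at 21.5 ± 8.14 CPM in 5mSC (n = 4) and 13.2 ± 2.52 CPM in 5mEE (−0.70 ± 0.244, edgeR adjusted p = 0.332). The full element is printed for Kif17, which was higher in 5mEE, and for Dusp1, which was lower, and neither gene passed in edgeR. The part of the element in these differences was not tested. Arc and 1700016P03Rik are not shown.

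Synaptic genes were covered by lists of receptors, of adhesion molecules and of other presynaptic and postsynaptic proteins. Of 24 glutamate receptor genes 5 were higher and 0 lower without replicate 3 (median 0.13), 7 and 0 with all libraries (0.22), and 1 and 0 without replicates 1 and 3 (0.11). In these fits in turn, 4.72%, 6.52% and 2.28% of all genes were higher and 8.04%, 10% and 4.44% lower. Grm7, a presynaptic metabotropic receptor, had 52.3, 61.0, 54.7, 61.1 and 52.4 CPM in 5mSC and 69.3, 68.0, 68.0, 69.0 and 63.5 CPM in 5mEE, with no overlap (0.25 ± 0.064, adjusted p = 0.265). It passed in DESeq2 with all libraries (adjusted p = 0.0234). Of the 40 other presynaptic and postsynaptic proteins 3 were higher and 2 lower without replicate 3 (median 0.05), 7 and 1 with all libraries and 1 and 1 without replicates 1 and 3. The NMDA receptor subunit Grin2a had 256, 365, 274, 413 and 365 CPM in 5mSC and 375 to 478 CPM in 5mEE (0.29 ± 0.108, adjusted p = 0.337; 0.17 ± 0.089 without replicates 1 and 3). Here replicates 1 and 3 of 5mSC were the lowest, and Grin2b, chosen after its values were seen, had the same 2 lowest libraries with 345 and 308 CPM, 508 to 654 CPM in replicates 2, 4 and 5 and 594 to 776 CPM in 5mEE. Of 26 genes of GABA signalling and interneurons 6 were higher and 1 lower. The GABA-A receptor subunit Gabrb1 had 150.2, 236, 185, 259 and 222 CPM in 5mSC and 289, 271, 310.1, 302 and 261 CPM in 5mEE, just without overlap (0.40 ± 0.113, adjusted p = 0.302; 0.26 ± 0.085 without replicates 1 and 3). Grin2a, Grin2b and Gabrb1 have exon lengths of 17933, 24842 and 13838 bases and fall in the longest of 5 bins of genes by exon length (7270 bases or more), in which the median log2 fold change of all genes was 0.09 without replicate 3. The part of gene length in their values was not tested. Gad2, which makes GABA, had 161 ± 20.3 CPM in 5mSC (n = 4) and 188 ± 18.2 CPM in 5mEE (0.22 ± 0.083), and neuropeptide Y (Npy) 30.0 to 45.8 CPM without replicate 3, 14.1 CPM in it and 38.3 to 43.6 CPM in 5mEE.

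The clustered protocadherins, which give single neurons their surface identity, had 9 of 47 members higher and 0 lower without replicate 3, beside 4.72% and 8.04% of all genes, with a median of 0.17. The counts were 11 and 0 with all libraries, and 5 and 0 with a median of 0.07 without replicates 1 and 3, beside 2.28% and 4.44% of all genes in that fit. Their mean log2 CPM was 2.44, 2.83, 1.92, 2.85 and 2.69 in 5mSC and 2.80 to 2.94 in 5mEE, so that the 5mSC libraries with the 2 lowest library weights were also the lowest here. Members share exons at the end of a cluster, and 54.6% of the exon length of Pcdhgb1 (4.92 ± 1.59 CPM in 5mSC without replicate 3 and 7.35 ± 0.963 CPM in 5mEE; 0.58 ± 0.170) and 44.8% of that of Pcdhga6 (9.70 ± 0.982 and 11.6 ± 1.22 CPM; 0.26 ± 0.088) overlap other genes. Their reads can therefore not be assigned to 1 member with certainty. Ntrk3, the receptor of neurotrophin 3, had 180, 251, 234, 271 and 266 CPM in 5mSC and 272, 289, 312, 318 and 297 CPM in 5mEE, again with replicate 1 lowest (0.29 ± 0.109, adjusted p = 0.337; 0.18 ± 0.094 without replicates 1 and 3). It was the 1 higher member of the 18 neurotrophic factors and receptors without replicate 3, and Igf2 (−0.45 ± 0.181) was 1 of the 2 lower.

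Ribosomal proteins and respiratory subunits, which have short messages, stood lower in 5mEE. Without replicate 3, 8.04% of all genes were lower and 4.72% higher. In that fit 49 of 79 cytosolic ribosomal proteins were lower and 0 higher (median −0.29), and of 75 nuclear subunits of oxidative phosphorylation also 49 and 0 (median −0.24). Without replicates 1 and 3 these counts were 18 lower and 1 higher, and 21 and 0, beside 4.44% lower and 2.28% higher of all genes. The groups did not overlap, with 5mEE lower, for 15 of the 79 and 9 of the 75 without replicate 3, beside 1.52% of all genes. The mean log2 CPM of the ribosomal proteins was 4.29, 3.93, 5.04, 3.93 and 4.24 in 5mSC and 3.78 to 3.90 in 5mEE, and that of the respiratory subunits 6.59, 6.18, 6.67, 6.22 and 6.44 in 5mSC and 6.14 to 6.17 in 5mEE. In both lists the 5mSC libraries lay over all 5mEE libraries, and those with the larger share of mitochondrial ribosomal RNA (replicates 1, 3 and 5) were the highest. Rps21 of the small ribosomal subunit had 154, 107, 237, 112 and 144 CPM in 5mSC and 100.1, 98.1, 93.9, 99.0 and 97.7 CPM in 5mEE (−0.41 ± 0.117, adjusted p = 0.304), and Rps26 39.8 ± 5.01 CPM in 5mSC (n = 4) and 32.5 ± 1.22 CPM in 5mEE. Of complex I, Ndufa11 had 80.2, 56.1, 61.2, 58.4 and 59.4 CPM in 5mSC and 48.9 to 51.4 CPM in 5mEE (−0.34 ± 0.092, adjusted p = 0.288; −0.20 ± 0.070 without replicates 1 and 3), and Ndufa3 77.1 ± 16.7 and 58.4 ± 2.04 CPM with 205 CPM in replicate 3. Fold changes also varied with exon length over all genes. Over 5 bins of genes by exon length, with 3324 to 3334 genes each, the median log2 fold change without replicate 3 was −0.12 in the shortest, −0.07, −0.02 and 0.02 in between and 0.09 in the longest, and −0.06 and 0.03 in the shortest and longest without replicates 1 and 3. Of the single genes named before, Pard6a, S100a10 and 1700016P03Rik (1582, 1212 and 863 bases) fall in the shortest bin. Acvr1c and Peli2 (9292 and 9089 bases) fall in the longest, and Stk40, Kif17, Htr1a and Peli3 (4117 to 4720 bases) in the middle one. The part of RNA quality or library make-up in the 2 lists, and of exon length in these genes, was not tested.

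Markers of tissue next to the hippocampus, which a dissection can include, were counted in the same way. The fibroblast and choroid plexus lists are described because their medians were the most extreme. Without replicate 3 the median was 0.30 for ependymal cilia, 0.03 for brain endothelium and pericytes and 0.06 for collagens and matrix enzymes. It was −0.12 for blood cells, −0.09 for neocortex, 0.03 for striatum, −0.05 for thalamus and habenula and 0.12 for hypothalamus and pituitary. Over all genes 8.04% were lower and 4.72% higher without replicate 3. These shares were 10% and 6.52% with all libraries and 4.44% and 2.28% without replicates 1 and 3. Of 16 genes of meningeal and perivascular fibroblasts 9 were lower and 0 higher in 5mEE without replicate 3 (median −0.58), 12 and 0 with all libraries (−0.69) and 11 and 0 without replicates 1 and 3 (−0.67). In bulk tissue, fewer cells of a type and less RNA per cell cannot be told apart. Their mean log2 CPM was 2.70, 2.66, 3.59, 3.70 and 2.61 in 5mSC and 2.33 to 2.65 in 5mEE, where replicates 3 and 4 of 5mSC stood over all others. Fmod, fibromodulin of the collagen matrix, had 3.06, 6.82, 3.51, 17.2 and 4.13 CPM in 5mSC and 2.28 to 4.12 CPM in 5mEE (−1.37 ± 0.345, adjusted p = 0.242). Aldh1a2, which makes retinoic acid, had 3.49, 4.33, 4.49, 6.996 and 3.63 CPM in 5mSC and 1.98 to 3.33 CPM in 5mEE, the groups not overlapping (−0.82 ± 0.228, adjusted p = 0.302). Ptgds, the prostaglandin D synthase of the meninges, had 165, 240, 448, 728 and 164 CPM in 5mSC and 108 to 217 CPM in 5mEE, and the sulfate transporter Slc13a4 10.4 and 10.5 CPM in replicates 3 and 4, 2.59 to 3.88 CPM in replicates 1, 2 and 5 and 1.90 to 4.39 CPM in 5mEE. Ptgds passed in DESeq2 with all libraries (adjusted p = 0.0471) but not without replicate 3. Decorin (Dcn), a matrix proteoglycan, had a log2 fold change of 0.02 ± 0.393 without replicate 3 and 100.2 CPM in that library. These 3 genes were chosen after their values were seen.

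Choroid plexus markers stood higher in 5mEE once replicate 3 was left out. Over all genes 4.72% were higher and 8.04% lower without replicate 3, and 6.52% and 10% with all libraries. Of 15 markers 6 were higher and 0 lower without replicate 3 (median 0.56), but 1 and 0 with all libraries (median 0.02), the 1 being close to the share of all genes. Their mean log2 CPM was 0.75, 0.41, 2.72, 0.99 and 0.54 in 5mSC and 0.88, 1.46, 1.03, 1.24 and 1.84 in 5mEE, with replicate 3 over all others. Clic6, a chloride channel protein of this epithelium, had 6.46 CPM in replicate 3, 1.44 to 2.401 CPM in the remaining libraries of its group and 2.32, 4.23, 3.12, 4.05 and 7.33 CPM in 5mEE (1.28 ± 0.359 without replicate 3, adjusted p = 0.302). F5, coagulation factor V, had 0.250 to 0.652 CPM, 5.26 CPM in replicate 3 and 0.706 to 1.93 CPM in 5mEE (1.34 ± 0.385, adjusted p = 0.304). Outside replicate 3 its 5mSC levels rest on few reads, since 3 counts equal 0.0881 to 0.186 CPM in those libraries. Transthyretin (Ttr), the defining carrier protein of the choroid plexus, chosen after its values were seen, had 18.1, 8.04, 328, 27.1 and 24.6 CPM in 5mSC and 17.2, 57.4, 32.4, 58.7 and 90.8 CPM in 5mEE. At 24 months the median of the fibroblast list was −0.02 and that of the choroid plexus list −0.21 for 24mEE against 24mSC. How far dissection entered these values was not tested.

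Among the hormonal and stress lists, 6 of 18 clock genes were lower and 0 higher without replicate 3 (median −0.13), but 2 and 0 with all libraries (median −0.14). Over all genes 8.04% were lower and 4.72% higher without replicate 3, and 10% and 6.52% with all libraries. Per2 had 46.2, 57.7, 60.5, 62.5 and 62.6 CPM in 5mSC and 38.3, 60.9, 41.2, 39.8 and 42.7 CPM in 5mEE (−0.37 ± 0.120, adjusted p = 0.312), and Bhlhe40, a repressor that neuronal activity also induces, 142 ± 14.8 and 112 ± 14.6 CPM (−0.35 ± 0.098). The hour of tissue collection is not given in the sources used here. Of 20 glucocorticoid-induced genes 4 were lower and 1 higher without replicate 3, but 0 and 1 with all libraries, with Pdk4 (−0.42 ± 0.137) and Ddit4 (−0.38 ± 0.149) among the lower, while the classical target Fkbp5, chosen after its values were seen, had 73.6 ± 14.9 CPM in 5mSC (n = 4) and 85.8 ± 8.59 CPM in 5mEE. Of 29 heat shock proteins 5 were lower and 0 higher (6 and 2 with all libraries). Dnajb5 had 213, 199, 152, 198 and 198 CPM in 5mSC and 146 to 180.1 CPM in 5mEE, apart except for replicate 3 (−0.32 ± 0.072, edgeR adjusted p = 0.242), and its relative Dnajb1 74.4 ± 7.64 and 59.0 ± 5.34 CPM (−0.34 ± 0.080). Dnajb5 passed in DESeq2 without replicate 3 (adjusted p = 0.0349). Cholesterol synthesis had 7 of 23 genes lower and 0 higher, among them Mvd (−0.38 ± 0.117) and Pmvk (−0.24 ± 0.078, and −0.14 ± 0.064 without replicates 1 and 3), both of the mevalonate pathway, with a median of −0.19. With all libraries 2 of the 23 were lower and the median was −0.096.

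The immune and glial lists are read beside the 8.04% lower and 4.72% higher of all genes without replicate 3. In that fit MHC class I presentation had 4 of 18 lower and 0 higher (median −0.28), and with all libraries 5 and 0. Without replicates 1 and 3 MHC class I presentation had 2 lower and 0 higher (median −0.18), beside 4.44% and 2.28% of all genes. B2m, its invariant chain, had 109, 83.8, 73.0, 87.9 and 88.0 CPM in 5mSC and 72.9 to 78.7 CPM in 5mEE, apart except for replicate 3 (−0.28 ± 0.089, adjusted p = 0.312; −0.19 ± 0.083 without replicates 1 and 3), and H2-T23 7.05 ± 1.15 and 5.31 ± 0.795 CPM. Interferon-stimulated genes had 4 of 34 lower and 0 higher (7 and 0 with all libraries), and the 4 are little over the share of all genes. Irf9 stood at 12.4 ± 1.07 and 10.03 ± 0.9996 CPM with 23.7 CPM in replicate 3, and Bst2 at 3.50 ± 0.974 and 2.55 ± 0.175 CPM. Homeostatic microglia markers had 1 of 14 lower, Fcrls (−0.41 ± 0.193), which is no more than the share of all genes. Trem2 stood at 15.01 ± 1.44 and 12.97 ± 0.854 CPM (edgeR unadjusted p = 0.0515). Of 20 myelin genes Apod was the 1 lower (−0.43 ± 0.157), again no more than the share of all genes. Mal had 211 ± 24.8 and 184 ± 53.6 CPM, within the spread of 5mEE.

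Neurogenesis was covered by lists of newborn neurons and of dividing cells. Of 19 markers of progenitors and newborn neurons 0 were higher or lower without replicate 3 at an unadjusted p under 0.05 in edgeR. Sox2 of the stem cells had 33.7 ± 3.77 CPM in 5mSC (n = 4) and 30.0 ± 1.04 CPM in 5mEE, and Prox1 of the granule cells 94.3, 97.7, 90.6, 90.4 and 174 CPM in 5mSC and 113 to 175 CPM in 5mEE. For doublecortin (Dcx), chosen after its values were seen, the levels were 14.9, 25.6, 23.3, 15.8 and 16.2 CPM in 5mSC and 15.8 to 25.6 CPM in 5mEE (0.28 ± 0.176, unadjusted p = 0.123), a difference smaller than the spread of 5mSC. Of 11 genes of dividing cells 1 was higher, Cenpf (1.083 ± 0.145 and 1.62 ± 0.335 CPM), and 1 lower, Pcna (20.8 ± 2.28 and 17.9 ± 1.31 CPM). Without replicate 3, 4.72% of all genes were higher and 8.04% lower. Cenpf stood at a low level and did not pass in edgeR (0.58 ± 0.242, adjusted p = 0.349). The smallest difference that could be detected at such a level was not tested.

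**Figure D4:**
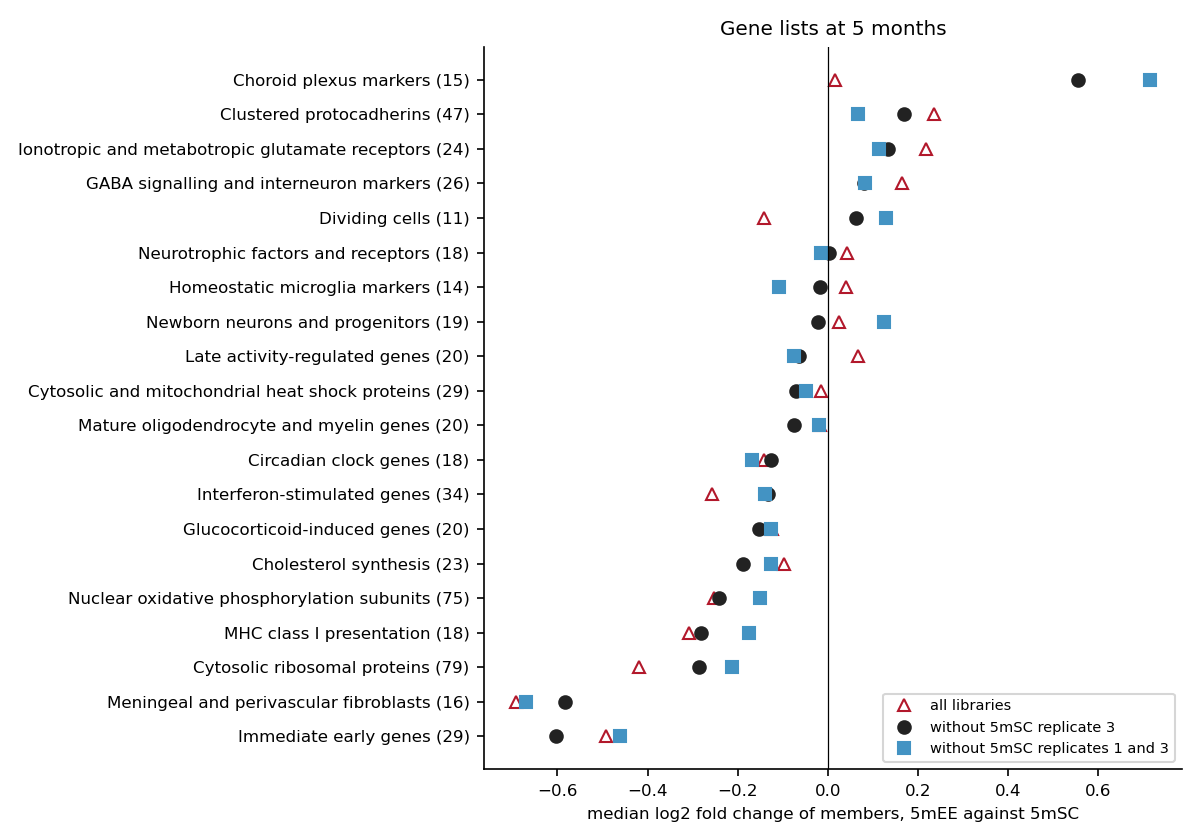
Median log2 fold change (5mEE against 5mSC) of the members of 20 gene lists, with the number tested in brackets, with all libraries (open triangles), without 5mSC replicate 3 (circles) and without 5mSC replicates 1 and 3 (squares). The immediate early and fibroblast lists lie lowest at −0.60 and −0.58 without replicate 3, and the choroid plexus list moves from 0.02 to 0.56 when replicate 3 is left out.

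The effect of enrichment at 5 months was set beside that at 24 months, which rests on 10 other libraries. With all libraries 0 genes passed edgeR's test of the difference between the ages, 1336 had an unadjusted p under 0.05, DESeq2 called 2 genes and limma-voom 0. The smallest p belonged to Adgra3 and 1700016P03Rik (adjusted p = 0.0578 for both, 0.0503 without replicate 3), which are the 2 genes called by DESeq2 (adjusted p = 0.000258 each). 1700016P03Rik was lower after enrichment at 5 months and had 1.38, 2.17, 2.04, 2.05 and 1.77 CPM in 24mSC and 3.29, 4.39, 2.76, 2.39 and 2.43 CPM in 24mEE, higher without overlap (0.70 ± 0.200). The difference of the 2 effects was −1.70 ± 0.279 without replicate 3. Adgra3, an adhesion-type G protein-coupled receptor, had 16.8, 20.6, 19.7, 20.9 and 16.8 CPM in 5mSC and 24.0, 26.1, 25.5, 22.8 and 18.2 CPM in 5mEE. At 24 months it had 20.0 to 25.6 CPM in 24mSC and 13.5 to 16.7 CPM in 24mEE, so that the difference was 0.90 ± 0.149. Without replicates 1 and 3 of 5mSC, 1 other gene passed in edgeR, the immediate early gene Egr3 (difference −0.57 ± 0.082, adjusted p = 0.0194), named after its values were seen. It had 40.0, 55.0, 16.9, 59.5 and 50.9 CPM in 5mSC, 41.3 to 46.1 CPM in 5mEE, 36.6 to 41.4 CPM in 24mSC and 41.6 to 49.3 CPM in 24mEE, and the 2 libraries left out were the lowest of 5mSC.

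Next in p were Lrig1, a receptor that restrains ErbB signalling, with 29.2 ± 3.40 CPM in 5mSC (n = 4) and 35.2 ± 3.89 CPM in 5mEE beside 41.5 ± 5.13 and 32.3 ± 1.96 CPM at 24 months (difference 0.62 ± 0.135, adjusted p = 0.331). Cd44, the hyaluronan receptor, had 3.16 ± 1.30 and 4.30 ± 1.69 CPM at 5 months, which overlap, and 7.74 ± 1.25 and 2.70 ± 0.551 CPM at 24 months (difference 2.01 ± 0.371, adjusted p = 0.134). Slc6a20a (−1.09 ± 0.262) and the orphan receptor Gpr165 (1.05 ± 0.244) had an adjusted p of 0.335. For the immediate early genes the median log2 fold change of the 29 members at 24 months was 0.11, with 17 positive and 12 negative, beside 1 positive and 28 negative at 5 months. Fosb stood at 12.4 ± 1.47 CPM in 24mSC and 15.8 ± 1.61 CPM in 24mEE (difference −1.02 ± 0.218, adjusted p = 0.317). Arc had 74.7 to 141 CPM in 24mSC and 186, 213, 78.8, 70.7 and 68.9 CPM in 24mEE, where 2 libraries stood apart (difference −1.72 ± 0.447, adjusted p = 0.335). Kif17 had the higher mean in the enriched group at both ages (27.7 ± 1.53 and 31.9 ± 2.11 CPM at 24 months, 0.20 ± 0.062, adjusted p = 0.180), and Htr1a stood at 35.9 ± 2.73 and 35.9 ± 3.72 CPM at 24 months.

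**Figure D5:**
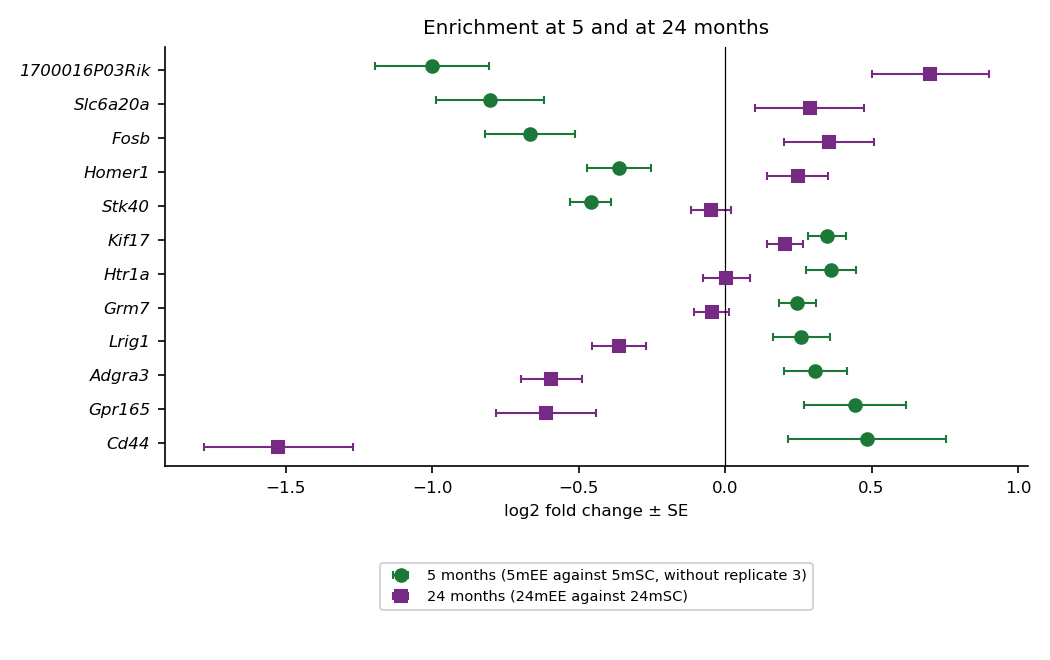
Log2 fold change with SE of 12 genes for enrichment at 5 months (circles, without 5mSC replicate 3) and at 24 months (squares). The 2 ages lie on opposite sides of 0 for 1700016P03Rik (−0.9999 and 0.70), Slc6a20a, Fosb and Homer1 and, in the other sense, for Lrig1, Adgra3 (0.31 and −0.59), Gpr165 and Cd44; none of these differences passed the adjusted test in edgeR.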

How the data were processed

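Hippocampal RNA of single mice was sequenced from TruSeq libraries that do not mark the strand (50-nucleotide single reads, per the study). The authors deposited whole-number read counts per Ensembl gene, made with STAR 2.4.1d and featureCounts 1.4.6-p4 on GRCm38, with bcl2fastq 1.8.2 before them, per the submitters' processing notes. These counts differ from those behind the paper, which used another aligner, another counter and more libraries. Deposited RPKM values were not used here. Of 47729 gene identifiers, 99.1% were matched to a symbol.

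The tests ran in edgeR 4.0.16 (R 4.3.3). Genes were kept by filterByExpr (least count 10, least total 15), scaled by TMM and fitted by quasi-likelihood with the 4 groups as the only term, which share 1 estimate of spread. Contrasts were 5mEE with 5mSC, 24mEE with 24mSC and their difference. The fit was made with all 20 libraries and without 5mSC replicate 3. Benjamini-Hochberg adjustment ran over all genes, with 0.05 as the limit for a call. Levels are CPM on the TMM scale, fold changes are log2 with SE, and values in parentheses without a named fit are those without replicate 3. A count of 0 in a library of 10963348 to 34107138 counts allows 0.088 to 0.274 CPM (3 counts), for counting error only. DESeq2 1.42.0 and limma 3.58.1 served as alternatives, beside other filters and scalings and leaving out each library. The script was tested on simulated data.

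The groups, the gene lists and the genes named were chosen with earlier results of these data known. Named genes are the 6 with the smallest p in each direction of each fit (those without a symbol or with mean log2 CPM below 1 left out), the 2 members of each described list with the smallest p without replicate 3, and the 6 with the smallest p for the difference between ages. Other genes were chosen after their values were seen. In the text on lists, higher and lower mean an unadjusted p under 0.05. Replicate numbers follow the order of deposition. The study kept mice in 2 runs, which the labels do not give, so a run could not be fitted, and p values measure only the spread between these mice.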

Additional observations from a re-analysis of the deposited data

Results flagged for a closer look

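A library stood apart from the other 4 of its group, by Dixon's ratio, in 20 of 168 groups of 5 values tested (library measures, list means and named genes). For unselected values chance alone flags about 1 in 20. The genes and lists were chosen with results of these data known, and their values come from the same libraries. The count of 20 can therefore not be read against that rate. Of these 20, 17 were in 5mSC, 13 of them in replicate 3, and 3 were in 5mEE.

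In 5mSC replicate 3 these were the mitochondrial ribosomal RNA (26.8%), the share of the 10 most abundant genes (34.4%), the mean log2 CPM of the dividing cell (3.185), interferon (2.406) and choroid plexus lists (2.719), and the levels of Gm26917 (22930 CPM), Ccdc9b (19.9 CPM), Crybb3 (11.5 CPM), Dnajb5 (152 CPM, the low end), Irf9 (23.7 CPM), Ndufa3 (205 CPM), Clic6 (6.46 CPM) and F5 (5.26 CPM). In the other 5mSC libraries they were Prox1 in replicate 5 (174 CPM), Ndufa11 in replicate 1 (80.2 CPM), and Fmod (17.2 CPM) and Aldh1a2 (6.996 CPM) in replicate 4. In 5mEE they were Gm26917 (48.1 CPM) and Per2 (60.9 CPM) in replicate 2 and Grm7 in replicate 5 (63.5 CPM, the low end). The flag for mitochondrial ribosomal RNA in 5mSC replicate 3 is no test, since the same share chose this library as the one left out. The share of the most abundant genes is not independent of that RNA. Like the rest, neither of these flags can be read against the chance rate.

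For 6 of 61 named genes all enriched libraries lay on opposite sides of the mean of their standard cage at the 2 ages. With all libraries the effect at 5 months minus that at 24 months was −1.71 for 1700016P03Rik (edgeR adjusted p = 0.0578), 0.66 for Lrig1 (0.476), 1.10 for Gpr165 (0.613), −0.85 for Fosb (0.621), −0.53 for Homer1 (0.621) and 0.31 for Grm7 (0.613). None of these 6 differences passed. 1700016P03Rik, Lrig1 and Gpr165 were named for a small p of this same difference. Fosb, Homer1 and Grm7 were named for a small p at 5 months. The count of 6 is thus partly fixed by the choice of genes, and the share over all genes was not computed.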

How the results depend on the processing

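The count of genes that passed for 5mEE against 5mSC was 0 with all libraries, 28 by the DESeq2 Wald test and 0 to 1 when 1 library was left out (1 without 5mSC replicate 3). Without replicate 3 it was 1, and 25 by DESeq2, 0 by limma-voom with library weights, 0 in a fit of only the 2 groups and 0 to 1 when a further library was left out. The difference between ages gave 0 genes, 2 by DESeq2 and 0 to 1 when 1 library was left out, the 1 being 1700016P03Rik without 5mEE replicate 2 (edgeR adjusted p = 0.0271) and Adgra3 without 5mEE replicate 5 (0.0110). It gave 1, Egr3, without 5mSC replicates 1 and 3 (0.0194). For 5mEE against 5mSC, genes with an unadjusted p under 0.05 fell from 2759 to 1138 without 5mSC replicates 1 and 3. For the difference between ages they went from 1336 to 1570. This is a fit of 18 libraries whose counts for the lists were added after the data had been seen. The cause of these changes was not tested.

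For Stk40 without replicate 3, the call was lost in 9 of 16 alternatives, and the sign held in all of them. Fold changes turned in sign with all libraries for F5 (0.03, but −0.085 by DESeq2 and −0.048 in the fit of 2 groups), for Dcn (−0.68, but 0.033 by limma-voom and 0.23 without replicates 1 and 3) and for Ttr (−0.62, but 1.27 and 1.32). Leaving out 1 library gave −0.29 to 1.34 for F5, −1.08 to 0.020 for Dcn (−0.37 to 0.23 without replicate 3), −0.93 to 1.37 for Ttr, −0.194 to 0.032 for Bdnf, −0.057 to 0.30 for Jun (−0.18 to 0.17 without replicate 3) and −0.20 to 0.060 for Mal. None of these genes passed in any of these fits.

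No paired analysis was possible because the replicate numbers were given in the order of deposition and the labels do not say what libraries share.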

Other observations

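The mean log2 CPM of the immediate early genes was highest in replicates 1 and 2 of 3 groups, namely 5mSC (5.24 and 5.34), 5mEE (4.52 and 4.68) and 24mEE (4.70 and 4.83), whereas in 24mSC these stood at 4.32 and 4.25. The numbers follow the order of deposition, and the labels do not say what these libraries share.

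A pair of ribosomal protein genes stood far higher in 5mSC replicate 3 than in the rest of its group. Rps14 stood at 3363 CPM in it, against 123 to 168 CPM in replicates 1, 2, 4 and 5. Rpl39 stood at 1224 CPM, against 8.96 to 12.5 CPM. Their log2 fold changes of −2.79 and −4.81 with all libraries became −0.35 and −0.29 without it. Both genes were chosen after their values were seen.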
